A study of Homo sapiens with 16 samples.

Results

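The 10 genes described here encode chaperones, folding enzymes, a transcription factor and degradation factors of the endoplasmic reticulum (ER) unfolded protein response: HSPA5, HSP90B1, DNAJB9, HERPUD1, SDF2L1, PDIA4, XBP1, EDEM1, SEL1L and CRELD2. They were taken by symbol from 58735 genes per table, all 10 were found as protein-coding genes, and all 10 passed the filter on low values in every test. RNA sequencing was done on human lung adenocarcinoma cell lines with EGFR mutations. NCI-H1975 cells were given the chloroform fraction of Flos Magnoliae (magnolia flower buds), given magnolin, a lignan of the same buds, or kept as controls, with 4 libraries per group numbered 1 to 4. Parental HCC827 cells are represented by 2 libraries, and the afatinib-resistant HCC827 cells were not analysed here. The labels give every one of these 14 libraries the genotype WT and name no dose, exposure time, vehicle or clone. The series set out to follow gene changes after resistance to EGFR kinase inhibitors and to look for inhibitors of such genes.

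When misfolded proteins build up in the ER, the sensors IRE1 (gene ERN1), ATF6 and PERK (gene EIF2AK3) are released from the chaperone BiP, the product of HSPA5. IRE1 splices XBP1 mRNA into the form that encodes an active transcription factor, ATF6 is cut by Golgi proteases into another, and PERK slows translation and raises ATF4. XBP1 and ATF6 act largely on chaperone and degradation genes, and ATF4 on amino acid and stress genes. Gene-level values hold both forms of XBP1 mRNA, so its splicing was not measured.

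ATF6 and XBP1 are known to act through the ER stress element (ERSE) and its shorter variant ERSE-II. RefSeq promoter windows (GRCh38.p14, 250 bases before to 50 after a gene's start) were found for all 10 genes. ERSE, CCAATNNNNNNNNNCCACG, was searched on both strands and lay in the windows of HSPA5, HSP90B1, XBP1 and CRELD2, against 27 of all 35116 windows (0.0769%). ERSE-II, ATTGGNCCACG, lay in those of HERPUD1 and SDF2L1, against 19 windows (0.0541%). DNAJB9, PDIA4, EDEM1 and SEL1L had neither in these windows, and no window of the 10 had both. The 10 genes were chosen as genes of this response, so the shares of all windows are no test of these matches. The bases before the start are shown for the 4 genes that limma without a block called for fraction versus control in replicates 3 and 4. The calls of other fits, given below, include genes with neither motif. The bases are printed with the motif in capitals, 5′ to 3′ on the gene's strand.
HSPA5 (chr9:125241344-125241593, minus strand): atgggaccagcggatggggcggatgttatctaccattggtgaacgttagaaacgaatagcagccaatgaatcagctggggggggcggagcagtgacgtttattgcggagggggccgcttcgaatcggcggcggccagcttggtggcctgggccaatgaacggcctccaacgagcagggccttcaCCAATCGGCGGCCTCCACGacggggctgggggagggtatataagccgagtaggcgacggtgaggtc
XBP1 (chr22:28800570-28800819, minus strand): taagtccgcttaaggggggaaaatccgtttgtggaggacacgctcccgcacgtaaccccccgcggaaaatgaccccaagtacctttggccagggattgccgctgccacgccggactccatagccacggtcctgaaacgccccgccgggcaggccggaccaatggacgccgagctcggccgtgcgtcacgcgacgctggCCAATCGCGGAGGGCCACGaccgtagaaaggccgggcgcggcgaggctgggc
HERPUD1 (chr16:56931892-56932141, plus strand): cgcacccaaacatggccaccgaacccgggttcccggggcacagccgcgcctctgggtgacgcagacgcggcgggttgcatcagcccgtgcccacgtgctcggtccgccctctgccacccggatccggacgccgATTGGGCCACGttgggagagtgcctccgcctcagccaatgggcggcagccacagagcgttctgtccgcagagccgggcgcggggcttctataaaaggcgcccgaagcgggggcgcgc
CRELD2 (chr22:49918384-49918633, plus strand): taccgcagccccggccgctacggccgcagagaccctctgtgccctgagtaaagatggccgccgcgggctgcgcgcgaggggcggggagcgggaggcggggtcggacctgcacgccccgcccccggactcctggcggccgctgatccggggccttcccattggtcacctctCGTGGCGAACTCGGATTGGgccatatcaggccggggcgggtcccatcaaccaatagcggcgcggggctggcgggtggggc

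The ERSE of HSPA5 began 66 bases before the start and that of XBP1 52 bases before it, both on the gene's strand. The ERSE of CRELD2 began 80 bases before the start on the opposite strand, where it reads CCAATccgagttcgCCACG. That CRELD2 start lies 467 bases from the gene start in the deposited tables. The distance was 306 bases for DNAJB9, 303 for HSP90B1 and 151 for PDIA4, and 8 to 94 bases for the others. HERPUD1 held its ERSE-II 117 bases before the start. HSP90B1 held ERSE at 194 bases (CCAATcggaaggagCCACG) and, on the opposite strand, at 89 bases (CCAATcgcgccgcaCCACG). SDF2L1 held ATTGGtCCACG at 188 bases on the opposite strand. The motifs are matches of letters, and no binding was measured.

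**Figure D1:**
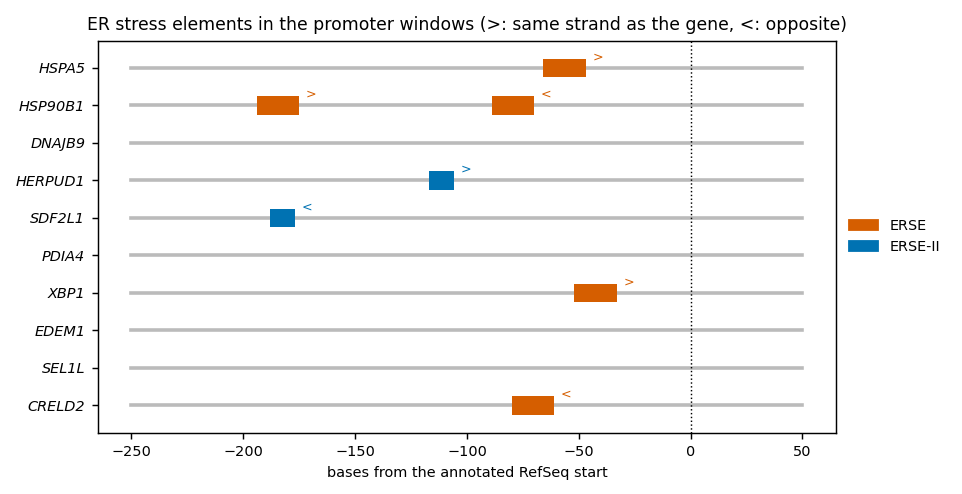
Position of the motifs in the RefSeq promoter windows of the 10 genes, in bases from the annotated start (x axis), 1 row per gene; boxes are ERSE (orange) or ERSE-II (blue), and the arrowheads give the strand. Motifs lie in 6 of the 10 windows, all before the start.

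Depth, rebuilt from FPKM (fragments per kilobase of gene, scaled to library size) and gene length, ran from 16.0 to 21.3 M reads in NCI-H1975 libraries and was 15.9 and 16.4 M reads in HCC827. The 10 genes had 177 reads (DNAJB9 in HCC827) to 31011 reads (HSPA5 in a control) per library. Replicates 1 and 2 of each NCI-H1975 group are in a table separate from replicates 3 and 4, and the replicate 1 libraries stood apart from the other 9. EPCAM, an epithelial adhesion gene, measured 178, 172 and 193 FPKM in fraction, magnolin and control replicate 1, against 7.65 to 14.4 FPKM in the other 9 NCI-H1975 libraries and 159 and 152 FPKM in HCC827. The 6 epithelial markers summed to 1110 to 1310 FPKM in the replicate 1 libraries, 393 to 619 FPKM in the other 9, and 2030 and 1840 FPKM in HCC827. The fibroblast markers summed to 2.15 to 3.47 FPKM in the replicate 1 libraries, 9.85 to 25.2 FPKM in the other 9, and 2.10 and 2.52 FPKM in HCC827. The immune markers summed to 4.66 to 6.37 FPKM in the replicate 1 libraries, 0.632 to 1.16 FPKM in the other 9, and 0.891 and 0.719 FPKM in HCC827. The endothelial markers summed to 0.517 to 0.816 FPKM in the replicate 1 libraries, 1.03 to 6.34 FPKM in the other 9, and 0.660 and 0.916 FPKM in HCC827. Under 1 FPKM in all 14 libraries were 4 of 6 fibroblast, 4 of 6 immune and 2 of 4 endothelial markers. Not every gene placed the replicate 1 libraries near HCC827. SEC61G, a translocon subunit picked after its values were seen, measured 48.3, 54.8 and 69.1 FPKM in fraction, magnolin and control replicate 1, against 28.4 to 82.3 FPKM in the other 9 and 549 and 522 FPKM in HCC827. OS9, picked in the same way, measured 31.0, 36.0 and 17.7 FPKM in these 3 libraries, against 21.2 to 40.6 FPKM in the other 9 and 523 and 512 FPKM in HCC827. Whether the replicate 1 libraries are of the labelled line was not tested. Whether the replicates came from different cultures is not on the labels, and the spread that the p-values rest on may be technical only.

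The levels of the 10 genes spread over a wide range in every library. HSPA5 was the highest in all 14 and ranked between position 29 and position 110 among the protein-coding genes of a library. HSP90B1 and PDIA4 followed at 116 to 204 FPKM, then XBP1 at 24.3 to 111, SEL1L at 16.0 to 43.7, SDF2L1 at 12.9 to 43.0 and HERPUD1 at 9.03 to 25.5 FPKM. DNAJB9, EDEM1 and CRELD2 formed the low end at 3.79 to 14.3 FPKM, and their ranges overlapped. In NCI-H1975 replicates 2 to 4 the first 4 places always went to HSPA5, HSP90B1, PDIA4 and XBP1 in that order. Fraction replicate 1 and magnolin replicate 1 instead began with HSPA5, PDIA4, HSP90B1, SDF2L1 and XBP1, the order of both HCC827 libraries, while control replicate 1 began as replicates 2 to 4 did.

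**Figure D2:**
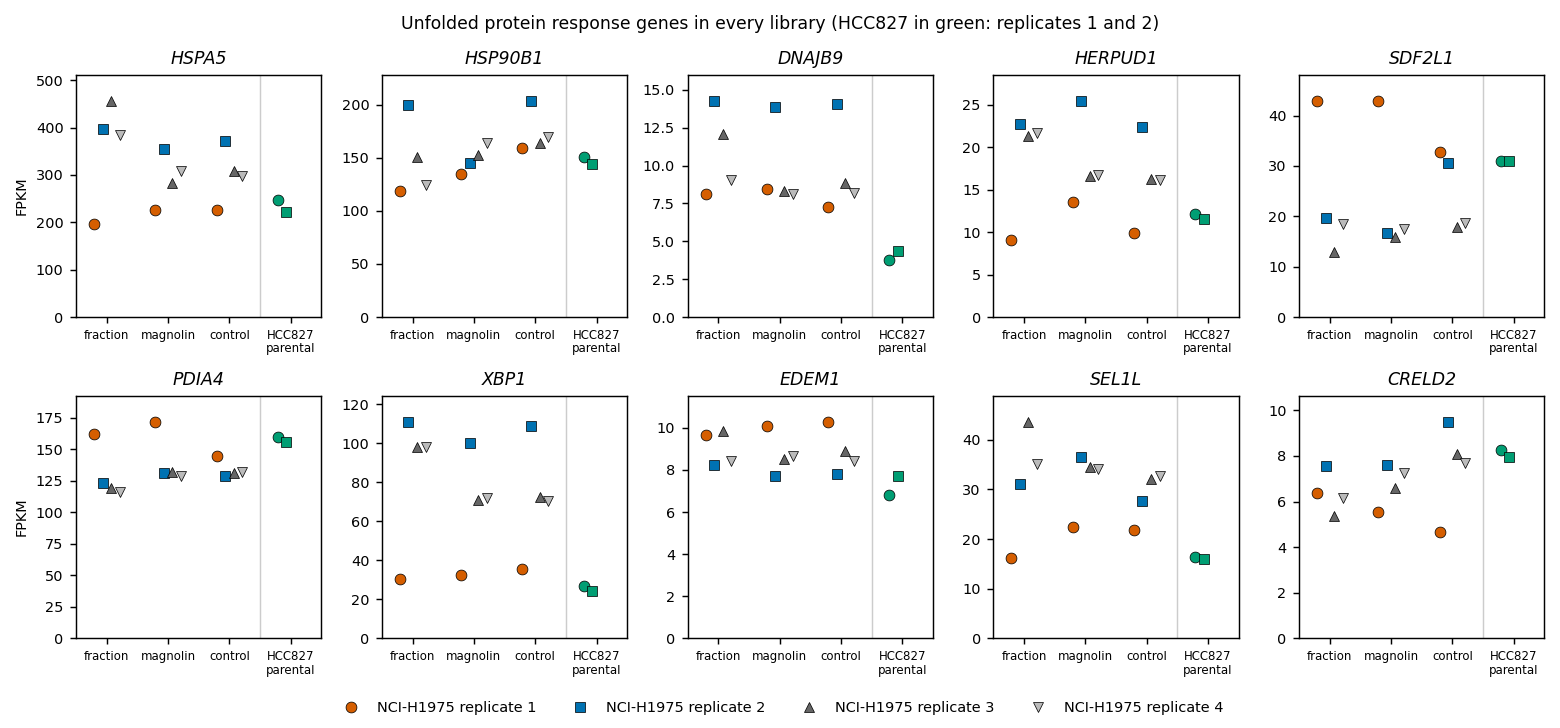
FPKM of the 10 genes (y axes start at 0) in the fraction, magnolin and control libraries of NCI-H1975 and in parental HCC827; each point is 1 library, with its replicate number in the legend. In replicates 3 and 4, HSPA5, XBP1 and HERPUD1 are higher with the fraction than in magnolin and control libraries, and in replicates 1 and 2 the points of XBP1, HERPUD1 and HSPA5 lie apart by replicate number in every group.

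In replicates 3 and 4, the chloroform fraction went with higher HSPA5, XBP1 and HERPUD1 and lower CRELD2 than in controls. The ratios of the means were 1.39, 1.37, 1.33 and 0.729. The other 6 genes did not pass the test, and among them 3 had higher and 3 lower means. This is a count of 3 of 10 higher and 1 of 10 lower, while limma called 19.9% of all 14673 genes tested (8.33% higher and 11.6% lower). The count of the 10 genes is to be read against that share. Less RNA per cell and fewer cells of a type cannot be told apart in such bulk samples.

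HSPA5 (ENSG00000044574, hg38 chromosome 9, 125234853 to 125241330), the ER Hsp70 chaperone BiP, measured 457 and 385 FPKM in fraction replicates 3 and 4, against 308 and 297 FPKM in controls. Both fraction libraries lay above both controls. The means were 421 ± 50.3 FPKM with the fraction and 303 ± 8.13 FPKM in controls (± SD, n = 2 each, here and below for replicates 3 and 4), a log2 change of 0.47 on the log2(FPKM + 1) scale (SE 0.10, limma, adjusted p = 0.0242). Leaving out either control, at adjusted p = 0.105 or 0.144, or either magnolin library, at 0.051 or 0.0514, ended the call. So did a fit of the 2 groups alone (adjusted p = 0.0513) and no filter on low genes (adjusted p = 0.115).

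XBP1 (ENSG00000100219, chromosome 22, 28794555 to 28800597), the transcription factor of the IRE1 arm, measured 98.0 FPKM in both fraction libraries, against 72.5 and 70.5 FPKM in controls. It had the lowest adjusted p of the 10 genes, with a log2 change of 0.45 (SE 0.06, limma, adjusted p = 0.00623). Leaving out control replicate 3 or 4 gave adjusted p = 0.0524 or 0.0727.

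HERPUD1 (ENSG00000051108, chromosome 16, 56932048 to 56944863), a membrane protein of the ER-associated degradation (ERAD) machinery, measured 21.3 and 21.7 FPKM with the fraction and 16.3 and 16.1 FPKM in controls. The groups did not overlap, and the log2 change was 0.39 (SE 0.07, limma, adjusted p = 0.0127). Without control replicate 3 or 4 the adjusted p was 0.0869 or 0.107.

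CRELD2 (ENSG00000184164, chromosome 22, 49918167 to 49927540), an ER-resident protein induced by ER stress, went the other way. It measured 5.35 and 6.15 FPKM with the fraction and 8.09 and 7.68 FPKM in controls, so that the fraction libraries were the low ones. The log2 change was -0.40 (SE 0.10, limma, adjusted p = 0.0368), and it did not pass with the replicate number as a block (adjusted p = 0.059). Nor did it pass without fraction replicate 3, control replicate 3 or 4, or magnolin replicate 3 or 4, in a fit of the 2 groups alone or with no filter (adjusted p = 0.0669 to 0.174).

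Among the remaining chaperones, HSP90B1 (GRP94, ENSG00000166598, chromosome 12, 103930107 to 103953645) measured 151 and 124 FPKM with the fraction and 164 and 170 FPKM in controls (log2 change -0.29, limma, adjusted p = 0.106). BiP and GRP94 are usually raised together in ER stress, and here their means lay on opposite sides of the controls. The ratio of HSPA5 to HSP90B1 overlapped between groups in replicates 1 and 2. It was 1.64 and 1.99 there with the fraction, 1.67 and 2.44 with magnolin and 1.42 and 1.82 in controls. In replicates 3 and 4 it was 3.03 and 3.10 with the fraction, 1.85 and 1.88 in magnolin and 1.88 and 1.74 in control libraries. PDIA4 (ERp72, ENSG00000155660, chromosome 7, 149003062 to 149028641), a disulfide isomerase, measured 119 and 116 FPKM with the fraction and 131 and 132 FPKM in controls (log2 change -0.16, adjusted p = 0.118). SDF2L1 (ENSG00000128228, chromosome 22, 21642261 to 21644298), a partner of BiP and its co-chaperones, measured 12.9 and 18.5 FPKM with the fraction and 17.8 and 18.7 FPKM in controls, which overlapped. DNAJB9 (ERdj4, ENSG00000128590, chromosome 7, 108569568 to 108574850), a J-domain co-chaperone of BiP that restrains IRE1, measured 12.1 and 9.02 FPKM with the fraction and 8.87 and 8.20 FPKM in controls (log2 change 0.27, adjusted p = 0.22).

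Of the other degradation factors, SEL1L (ENSG00000071537, chromosome 14, 81471549 to 81533861), the adaptor of the HRD1 ubiquitin ligase, measured 43.7 and 35.1 FPKM with the fraction and 32.2 and 32.7 FPKM in controls (log2 change 0.26, limma, adjusted p = 0.142). EDEM1 (ENSG00000134109, chromosome 3, 5187646 to 5219957), which directs misfolded glycoproteins to degradation, measured 9.87 and 8.44 FPKM with the fraction and 8.90 and 8.44 FPKM in controls (log2 change 0.07, adjusted p = 0.655). Counted without a test, 5 genes lay higher and 3 lower in both fraction libraries than in both controls, and SDF2L1 and EDEM1 overlapped. Of all genes tested, 61.9% did not overlap (29.2% higher and 32.7% lower). With limma voom on rebuilt reads, which called 28.0% of all genes, 6 of the 10 passed: SEL1L was also higher (adjusted p = 0.0333) and HSP90B1 also lower (adjusted p = 0.0196). Without fraction replicate 4, limma called 7, against 20.5% of all genes, with DNAJB9, SEL1L and SDF2L1 added (adjusted p = 0.023, 0.0112 and 0.0265). Without fraction replicate 3 it called 4, against 22.4% of all genes, with HSP90B1 lower (adjusted p = 0.0149) and CRELD2 not passing.

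Other measures also differed between the groups in the same libraries. Mitochondrially encoded genes accounted for 8.17 and 7.04% of reads in fraction replicates 3 and 4, 6.40 and 6.38% in magnolin and 5.84 and 5.83% in control libraries. The 6 epithelial markers summed to 410 and 449 FPKM with the fraction, 445 and 440 FPKM with magnolin and 619 and 613 FPKM in controls, so that both treatments lay lower. Among them KRT7 had a higher mean with the fraction (64.6 FPKM, against 60.0 FPKM in controls), and the other markers had lower means. The 4 endothelial markers summed to 1.11 and 1.03 FPKM with the fraction, 1.80 and 1.54 FPKM with magnolin and 6.34 and 4.35 FPKM in controls. Of these, CDH5 and PECAM1 had lower means with the fraction (0.111 and 0.738 FPKM, against 3.73 and 1.51 FPKM in controls). KDR and VWF, both very low, had higher means with it (0.186 and 0.0383 FPKM, against 0.08 and 0.0252 FPKM in controls). The 6 fibroblast markers summed to 9.85 and 10.5 FPKM with the fraction, 15.5 and 15.1 FPKM with magnolin and 25.2 and 19.7 FPKM in controls. Their part in the changes of the 10 genes was not tested.

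**Figure D3:**
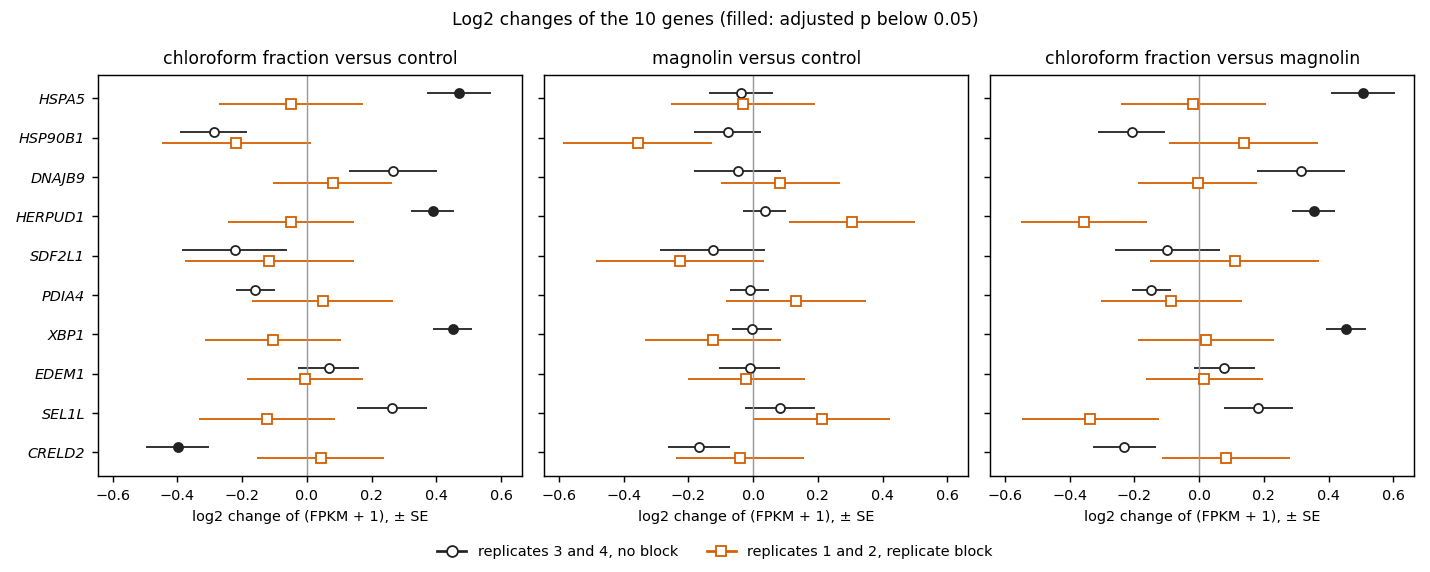
Log2 change of FPKM + 1 for the 10 genes in the 3 NCI-H1975 comparisons (x axes; bars are ± SE from limma), for replicates 3 and 4 (black circles, no block) and replicates 1 and 2 (orange squares, replicate block); filled symbols have adjusted p below 0.05. The filled points are HSPA5, XBP1, HERPUD1 and CRELD2 for fraction versus control and HSPA5, XBP1 and HERPUD1 for fraction versus magnolin, all in replicates 3 and 4.

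Set against magnolin, the fraction gave the same 3 higher genes in replicates 3 and 4, where limma called 14.9% of all genes (5.55% higher and 9.36% lower). Magnolin libraries measured 282 and 309 FPKM for HSPA5, 70.7 and 71.9 FPKM for XBP1 and 16.6 and 16.7 FPKM for HERPUD1, all below both fraction libraries. The log2 changes were 0.51 for HSPA5 (SE 0.10, adjusted p = 0.0264), 0.45 for XBP1 (SE 0.06, adjusted p = 0.0108) and 0.35 for HERPUD1 (SE 0.07, adjusted p = 0.0239). HERPUD1 did not pass with the replicate block (adjusted p = 0.0557). CRELD2, at 6.58 and 7.26 FPKM with magnolin, lay above the fraction libraries without passing (log2 change -0.23, adjusted p = 0.158). Both comparisons use the same fraction libraries, and without magnolin replicate 3 or 4 none of the 10 was called (lowest adjusted p of the 3 genes 0.0849, for XBP1), while limma called 2.04% or 1.57% of all genes. XBP1 alone passed without control replicate 3 or 4, where 6.65% or 6.52% of all genes were called. Without fraction replicate 4, which gave calls for 12.7% of all genes, DNAJB9 and SEL1L were also higher (adjusted p = 0.0286 and 0.0291). Without fraction replicate 3, with 21.3% of all genes called, HSP90B1 was also lower (adjusted p = 0.0268).

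None of the 10 genes passed for magnolin in replicates 3 and 4. Limma called 0 of the 10 for magnolin versus control, with 0 at an unadjusted p below 0.05 and 0 by limma voom, while it called 0.627% of all genes. The log2 changes ran from -0.17 for CRELD2 (adjusted p = 0.51) to 0.08 for SEL1L (adjusted p = 0.786). As the lowest of these, CRELD2 had means of 6.92 ± 0.482 FPKM with magnolin and 7.89 ± 0.289 FPKM in controls, and XBP1 of 71.3 ± 0.885 with magnolin and 71.5 ± 1.47 FPKM in controls. The 2 treatments may differ in dose and time, which the labels do not give.

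In replicates 1 and 2 the levels followed the replicate number. HSPA5 measured 196 and 397 FPKM in fraction replicates 1 and 2, 226 and 354 FPKM in magnolin and 225 and 371 FPKM in controls. XBP1 measured 30.2 and 111 FPKM with the fraction, 32.5 and 100 FPKM with magnolin and 35.7 and 109 FPKM in controls. HERPUD1 measured 9.03 and 22.7 FPKM with the fraction, 13.6 and 25.5 FPKM with magnolin and 9.86 and 22.4 FPKM in controls. In all 3 groups the replicate 1 library was thus the low one for these genes, as it was for DNAJB9, SEL1L, HSP90B1 and CRELD2. The ratio of replicate 2 to replicate 1 was 3.05 to 3.66 for XBP1, 1.88 to 2.51 for HERPUD1, 1.57 to 2.02 for HSPA5, 1.64 to 1.94 for DNAJB9, 1.26 to 1.94 for SEL1L, 1.07 to 1.68 for HSP90B1 and 1.18 to 2.05 for CRELD2. SDF2L1, PDIA4 and EDEM1 were higher in replicate 1 in all 3 groups, with ratios of 0.389 to 0.933, 0.757 to 0.893 and 0.758 to 0.855. Between replicates 4 and 3 the ratios of the 10 genes stayed within 0.746 to 1.43.

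**Figure D4:**
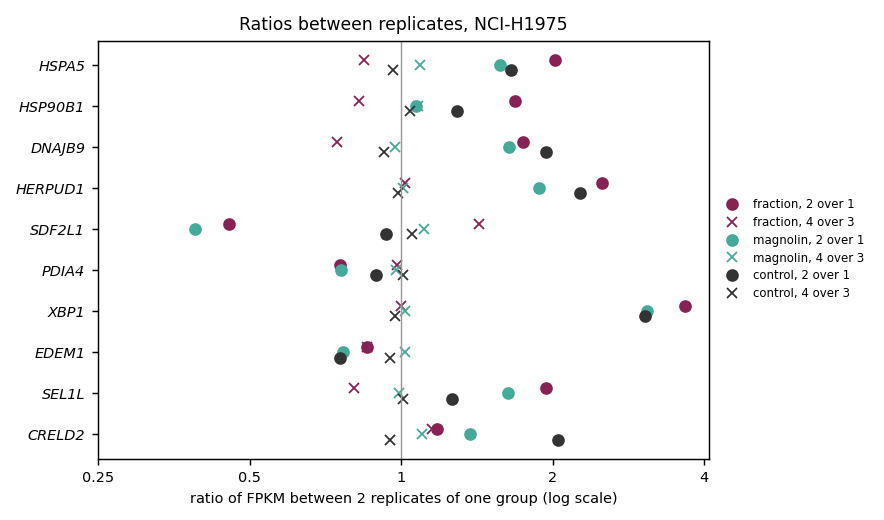
Ratio of FPKM between the replicates of one group for the 10 genes (x axis, log scale), with circles for replicate 2 over 1 and crosses for replicate 4 over 3, coloured by group. The circles lie on one side of 1 for each gene, up to 3.66 for XBP1, and the crosses lie between 0.746 and 1.43.

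No comparison in replicates 1 and 2 called any of the 10 genes. Limma without a block called 0.0% of 13103 genes in each of the 3 comparisons, and 0 of the 10 were at an unadjusted p below 0.05 or called by limma voom. With the replicate block, which takes up the difference between the numbers, it called 0.183% of genes for fraction versus control, 0.992% for magnolin versus control and 0.183% for fraction versus magnolin, and again 0 of the 10 (0 at an unadjusted p below 0.05). In that fit the fraction changes against control were -0.05 for HSPA5 (SE 0.22), -0.10 for XBP1 (SE 0.21), -0.05 for HERPUD1 (SE 0.20) and 0.04 for CRELD2 (SE 0.20) on the log2 scale, each with adjusted p = 1. For magnolin versus control they ran from -0.36 for HSP90B1 to 0.31 for HERPUD1 (adjusted p = 0.49 and 0.486). For fraction versus magnolin they were -0.02 for HSPA5, 0.02 for XBP1 and -0.355 for HERPUD1 (SE 0.195, limma, adjusted p = 0.895).

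With the block, limma called 14.7%, 0.293% and 8.93% of genes in replicates 3 and 4 for fraction versus control, magnolin versus control and fraction versus magnolin, and 3, 0 and 2 of the 10 genes. Over all 12 NCI-H1975 libraries with the replicate number as a block, 0 of the 10 genes passed in any comparison, with 0 at an unadjusted p below 0.05 and 0 by limma voom, while 0.156%, 0.0% and 0.0% of 15428 genes were called. The pooled fraction changes against control were 0.21 for HSPA5 (SE 0.14, adjusted p = 0.448), 0.17 for XBP1 (SE 0.13, adjusted p = 0.486), 0.17 for HERPUD1 (SE 0.14, adjusted p = 0.547) and -0.18 for CRELD2 (SE 0.13, adjusted p = 0.491). Against magnolin they were 0.244 for HSPA5, 0.237 for XBP1 and -0.001 for HERPUD1 (limma, adjusted p = 0.704, 0.703 and 0.993). The count was also 0 in each comparison without all replicate 1 libraries. After the data were seen, terms were added to the joint model that let the effects of the treatments differ between the tables. They gave the difference of the fraction effect against control, replicates 3 and 4 less replicates 1 and 2. It was 0.56 for XBP1 (SE 0.16, adjusted p = 0.231), 0.52 for HSPA5 (SE 0.20, adjusted p = 0.366), 0.44 for HERPUD1 (SE 0.17, adjusted p = 0.375) and -0.44 for CRELD2 (SE 0.24, adjusted p = 0.514), and none of the 10 passed. The unadjusted p (limma) was 0.00945 for XBP1, 0.0318 for HSPA5, 0.0349 for HERPUD1 and 0.097 for CRELD2. Of all 15428 genes, 35 passed. Thus the changes seen in replicates 3 and 4 were not called in replicates 1 and 2. For the 10 genes, the effects of the 2 tables were not shown to differ after adjustment, nor shown to be alike.

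Other genes of the pathway were counted by list for fraction versus control in replicates 3 and 4, where limma called 8.33% of all genes higher and 11.6% lower, 19.9% in all (14.7% with the replicate block). The lists of ER chaperones (4 of 19 called), ERAD genes (3 of 14), sensors and factors (3 of 12) and translocon genes (5 of 20) lay near that share, so their counts are not a result about those lists. Of 10 genes listed as output of the PERK arm 9 rose and 0 fell, with a median log2 change of 1.47, against -0.01 over all genes. The list is only named for that arm. PERK activity was not measured, and the source of the rise was not tested. CHAC1, a glutathione-degrading enzyme, measured 11.1 and 16.9 FPKM with the fraction and 1.01 and 1.94 FPKM in controls (log2 change 2.60, limma, adjusted p = 0.00247). DDIT4, an inhibitor of mTORC1 signalling, measured 61.4 ± 8.10 FPKM with the fraction and 15.3 ± 1.72 FPKM in controls (1.94, adjusted p = 0.000981). The sestrin SESN2 measured 18.3 ± 1.23 FPKM with the fraction and 4.18 ± 0.0586 FPKM in controls (1.90, adjusted p = 0.000348). DDIT3, which encodes the stress factor CHOP, measured 21.1 and 18.8 FPKM with the fraction and 6.70 and 4.28 FPKM in controls (1.72, adjusted p = 0.0029). The 10 chaperone and degradation genes had a median of 0.17 in the same libraries.

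Of 12 sensors and transcription factors 1 rose and 2 fell, with a median log2 change of -0.10. ATF4, the transcription factor of the PERK arm, measured 119 ± 4.71 FPKM with the fraction and 64.3 ± 3.83 FPKM in controls (log2 change 0.88, limma, adjusted p = 0.00163). NFYB, a subunit of the CCAAT-binding factor NF-Y, measured 4.69 ± 0.865 FPKM with the fraction and 9.74 ± 0.959 FPKM in controls (-0.92, adjusted p = 0.01). ATF6B, the paralog of ATF6, fell to 12.2 ± 1.22 FPKM, against 16.5 ± 0.826 FPKM in controls (-0.40, adjusted p = 0.0309), and did not pass with the replicate block (adjusted p = 0.0578). The 3 sensor genes, named here for their role and after their values were seen, did not pass (ERN1, ATF6 and EIF2AK3, adjusted p = 0.111, 0.557 and 0.297).

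Of 20 other ER chaperones and folding enzymes, 19 were tested, of which 2 rose and 2 fell (median -0.10). DNAJC3, the inhibitor of PERK known as p58IPK, fell by 0.64 on the log2 scale and CALR, the lectin chaperone calreticulin, by 0.32 (limma, adjusted p = 0.0258 and 0.0152). The oxidase ERO1A rose by 0.36 and the disulfide isomerase P4HB by 0.28 (adjusted p = 0.0313 and 0.0368), and neither passed with the replicate block (adjusted p = 0.0605 and 0.0698). Of 15 other ERAD genes, 14 were tested, of which 1 rose and 2 fell (median -0.10). The ATPase VCP fell to 60.6 ± 0.814 FPKM, against 84.9 ± 0.773 FPKM in controls (log2 change -0.48, adjusted p = 0.00499). EDEM2, a glycoprotein mannosidase factor, changed by -0.38 (adjusted p = 0.0209) and the ER lectin OS9 by 0.40 (adjusted p = 0.0165).

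Of 20 translocon, signal peptidase and secretory cargo genes 0 rose and 5 fell (median -0.15), or 3 with the replicate block. SSR2, a translocon-associated protein, fell to 23.7 ± 0.438 FPKM, against 37.5 ± 0.207 FPKM in controls (log2 change -0.64, limma, adjusted p = 0.00249). KDELR1, a receptor that returns ER proteins, changed by -0.46, the translocon subunit SEC61B by -0.44 and KDELR3 by -0.37 (adjusted p = 0.0121, 0.0248 and 0.0459), and KDELR3 did not pass with the block (adjusted p = 0.0787). Of 12 heat shock chaperones and co-chaperones, cytosolic apart from the mitochondrial chaperonin genes HSPD1 and HSPE1, 0 rose and 8 fell (median -0.43), or 6 with the replicate block, against the 11.6% of all genes lower. HSPE1, DNAJA1, HSPB1 and BAG3 changed by -0.87, -0.78, -0.71 and -0.52 (adjusted p = 0.0138, 0.00348, 0.0481 and 0.016), and HSPB1 did not pass with the block (adjusted p = 0.0651).

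**Figure D5:**
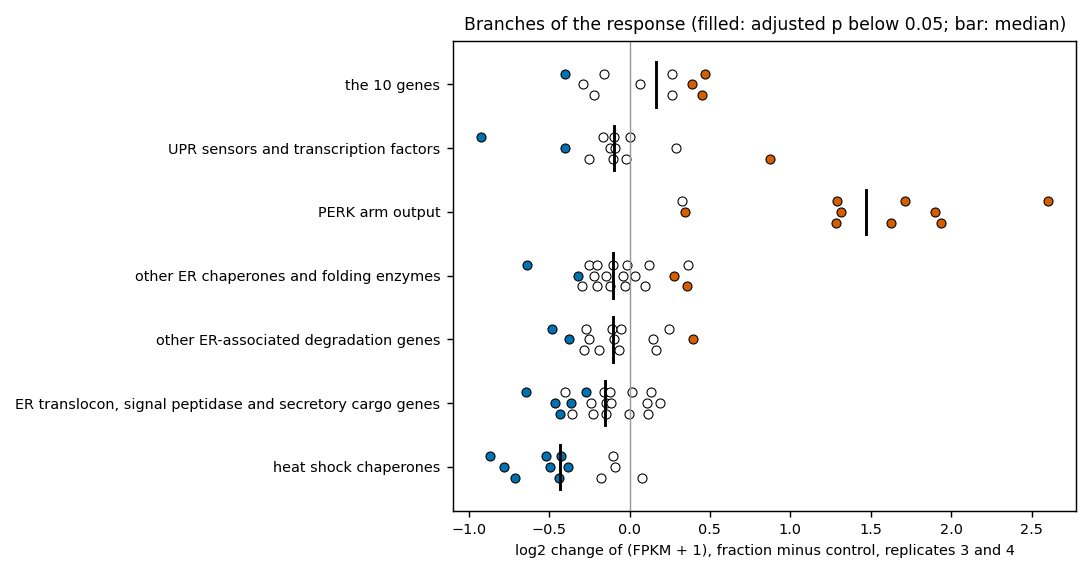
Log2 change of FPKM + 1, fraction minus control in replicates 3 and 4 (x axis), for each tested gene of the 10 genes and of 6 other lists; filled points are higher (orange) or lower (blue) at adjusted p below 0.05 and bars are medians. The PERK arm output stands at a median of 1.47 and the 10 genes at 0.17.

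For magnolin versus control, no gene of these 6 lists was called in replicates 3 and 4, where limma called 0.627% of all genes. The PERK arm list had a median of 0.33 there. In replicates 1 and 2, no list gene was called without a block in any comparison, and neither was any other gene. With the replicate block, limma called 0.992% of all genes for magnolin versus control in replicates 1 and 2 (0.481% higher and 0.511% lower). In that fit 3 of 9 tested PERK arm genes rose with magnolin. CHAC1 rose by 1.69, DDIT4 by 1.35 and SESN2 by 1.11 on the log2 scale (limma, adjusted p = 0.00404, 0.00556 and 0.0331). The 10 genes had a median of -0.03 in that comparison. 

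For fraction versus magnolin in replicates 3 and 4, 9 of 10 PERK arm genes rose (median 1.10), with 7 under the block. The shares of all genes called in this comparison were 14.9% (5.55% higher and 9.36% lower) and 8.93% with the block, and the counts of the sensor, chaperone, ERAD and translocon lists are to be read against them. CHAC1, SESN2, DDIT3 and the pseudokinase TRIB3 changed by 1.61, 1.56, 1.49 and 1.32 on the log2 scale (limma, adjusted p = 0.0161, 0.000765, 0.00824 and 0.00196). Of the 12 sensors and factors, ATF4 rose by 0.54 (adjusted p = 0.0111) and ERN1, the IRE1 gene, by 0.45 (adjusted p = 0.0423, or 0.0696 with the block), while NFYB fell by 0.78 (adjusted p = 0.0233). ERN1 measured 3.59 ± 0.04 FPKM with the fraction and 2.38 ± 0.257 FPKM with magnolin. In the chaperone list CALR alone passed, lower by 0.31 (log2 change -0.31, adjusted p = 0.023), and in the ERAD list VCP changed by -0.46 and OS9 by 0.38 (adjusted p = 0.00995 and 0.0264), OS9 not passing with the block (adjusted p = 0.0568). Of the translocon list 3 of 20 fell: SSR2 by 0.53, the signal peptidase subunit SPCS3 by 0.35 and KDELR2 by 0.31 (adjusted p = 0.00824, 0.0464 and 0.0348), with SPCS3 and KDELR2 not passing with the block (adjusted p = 0.0779 and 0.0649). Of the heat shock chaperones 7 of 12 fell (median -0.46), among them HSPE1, DNAJA1, HSP90AA1 and HSPH1 at -0.82, -0.75, -0.70 and -0.56 (adjusted p = 0.0229, 0.00742, 0.0161 and 0.0161). In replicates 1 and 2 the PERK arm list went the other way against magnolin. Its median there was -0.35, with 8 of 9 tested genes lower with the fraction and 0 called. Over all 12 NCI-H1975 libraries with the block its median was 0.39, with 0 of 10 called.

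Parental HCC827 libraries, normalized in a table of their own and therefore given without a test, lay near or below the low end of NCI-H1975 for several of the genes. DNAJB9 measured 3.79 and 4.34 FPKM, under the lowest NCI-H1975 library at 7.28 FPKM. XBP1 measured 26.5 and 24.3 FPKM, where NCI-H1975 libraries ran from 30.2 to 111 FPKM. HSPA5 (248 and 221 FPKM), HERPUD1 (12.1 and 11.6 FPKM) and SEL1L (16.4 and 16.0 FPKM) lay close to the replicate 1 libraries of NCI-H1975. PDIA4 (160 and 156 FPKM), SDF2L1 (30.9 and 31.0 FPKM) and CRELD2 (8.26 and 7.97 FPKM) were within the NCI-H1975 range.

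Of 7053 other protein-coding genes with a mean of at least 5 FPKM, those whose levels were most like HSPA5 over the 12 NCI-H1975 libraries, centred within each table, were MIA2 (Pearson r = 0.977), TIMP4 (0.964), ARGLU1 (0.948), ZNF558 (0.944) and TBL1X (0.943). These points share tables and replicate numbers. Within replicates 1 and 2 the r of the 5 genes was 0.967 to 0.996, and within replicates 3 and 4 it was 0.869 to 0.985. MIA2 measured 8.88 and 7.31 FPKM in fraction replicates 3 and 4 and 5.22 and 4.68 FPKM in controls, and 2.46 and 5.84 FPKM in fraction replicates 1 and 2 and 3.33 and 5.65 FPKM in controls.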

How the data were processed

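The authors deposited FPKM per gene in 3 tables, on hg38 per the submitters' processing notes. Libraries were made from total RNA by an NEB method, per the labels' protocols. The aligner, counter and strand setting are not given in these sources. Gene coordinates of the 10 genes equal those of GENCODE 29. Of the columns beside parental HCC827, 2 have names that match no label and were not used.

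Values were taken as log2(FPKM + 1), so fold changes of low genes are understated. Genes with at least 1 FPKM in at least 2 libraries were tested with limma 3.58.1 in R 4.3.3 (trended empirical Bayes), with 3 groups sharing the spread and Benjamini-Hochberg adjustment over all genes tested at a threshold of 0.05. Each table was tested alone, and all 12 NCI-H1975 libraries jointly with the replicate number as a block. Groups share replicate numbers. Deviations from group means correlated at 0.29 to 0.84 in all 12 same-number pairs, and the same number was the best match in 10 of them. These means were taken over both tables, so a difference between the tables raises the correlations whether or not the numbers pair. The numbers were taken to pair libraries from this check alone. Within replicates 1 and 2 the correlations were 0.704 to 0.743 and within replicates 3 and 4 they were -0.027 to 0.024. The check thus showed no pairing within replicates 3 and 4.

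Reads rebuilt from the deposited FPKM and gene length came out whole (within 0.05, for values up to 2000 reads) in 100.0% of cases, and limma voom was run on them as an alternative. No pair of libraries of a group agreed within sampling noise: the lowest chi-square per gene was 3.73. The other alternatives were a pseudocount of 0.1, no filter, median-ratio rescaling, the 2 compared groups alone and each library left out. The voom fit with the replicate block and the test of a difference between the tables were added after the data were seen. Only the fits of each NCI-H1975 table alone, with and without the replicate block and by limma voom, were checked on simulated data. The joint fit, the test of a difference between the tables and the other alternatives were not checked in this way.

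The 10 genes, pathway lists and marker lists were chosen with earlier results of these data known. All 10 genes are described. From each other list up to 4 called genes with the largest log2 change were named for each comparison, and the 5 genes most like HSPA5.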

Additional observations from a re-analysis of the deposited data

Results flagged for a closer look

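In each group of 4 NCI-H1975 libraries, a value was singled out where its gap to the nearest library was, as a share of the group's range, above Dixon's 95% critical value for 4 values. Of 30 sets of 4 values, 10 genes in 3 groups, 7 held such a value. For independent values of 1 population, chance gives about 1 in 20. The sets here share the same libraries and pool 2 tables, so that rate is no test of the count. In 6 of the 7 the library was a replicate 1 library. HERPUD1 measured 9.03 FPKM in fraction replicate 1, against 21.3 to 22.7 FPKM in the other fraction libraries. XBP1 measured 30.2 FPKM in fraction replicate 1, against 98.0 to 111 FPKM in the others. PDIA4 measured 162 FPKM in fraction replicate 1 (116 to 123 FPKM in the others) and 172 FPKM in magnolin replicate 1 (129 to 132 FPKM in the others). SDF2L1 was high in magnolin replicate 1 at 42.9 FPKM, against 15.8 to 17.5 FPKM, and SEL1L was low there at 22.4 FPKM, against 34.2 to 36.5 FPKM. The remaining value was DNAJB9 in magnolin replicate 2, at 13.9 FPKM, against 8.11 to 8.45 FPKM. The replicate 1 libraries also held 172 to 193 FPKM of EPCAM, and its part in these values was not tested.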

How the results depend on the processing

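Of the 10 genes, 4 passed for fraction versus control in replicates 3 and 4; 2 passed with no filter, 2 in a fit of the 2 groups alone, and 0 to 7 with 1 library left out. The 0 came without control replicate 3 or control replicate 4, 2 passed without magnolin replicate 3 or 4, 4 without fraction replicate 3, and 7 without fraction replicate 4. A group left with 1 library was assumed to vary like the others. For fraction versus magnolin in replicates 3 and 4, 3 passed; the 2 groups alone gave 1, and leaving out a library gave 0 to 5, with 0 without magnolin replicate 3 or 4, 1 without control replicate 3 or 4, and 5 without fraction replicate 4. In the other 7 comparisons the count was 0 under all alternatives run. With the replicate block, the 2 counts in replicates 3 and 4 were 3 and 2, and no other call of the 10 genes changed. No called gene changed sign: over 13 alternatives the log2 change of fraction versus control was 0.43 to 0.48 for XBP1, 0.38 to 0.42 for HERPUD1, 0.35 to 0.59 for HSPA5 and -0.48 to -0.31 for CRELD2, and the call was kept in 11, 11, 7 and 5 of them. The adjusted p ranged from 0.00029 to 0.0727, 0.00229 to 0.107, 0.000105 to 0.144 and 0.0122 to 0.174 in that order. Over all genes, fraction versus control in replicates 3 and 4 called 2918, with 1598 with no filter, 947 without control replicate 3 and 728 without control replicate 4; magnolin versus control called 92, 43 with the replicate block, 577 by limma voom and 0 without either control or either magnolin library. The cause of these differences was not tested. For fraction versus control in replicates 3 and 4, the main fit called 2918 of 14673 genes. With no filter 1598 of 33660 were called, and in the 2 groups alone 2035 of 14118. Every fit with fewer calls among the 10 genes in that comparison also called fewer of all genes. The counts of the 10 genes are to be read against this. With 2 libraries per group and table, a count of 0 does not show that the genes did not change. The planned test of resistant against parental HCC827 was not run, because no column used here holds the resistant cells.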
